A study of Mus musculus with 15 samples.

Results

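Microvessels from the brain region that carried a transplanted glioblastoma were compared between mice given triple therapy and mice given IgG, called untreated tumour here. Triple therapy was aflibercept, a soluble decoy receptor that captures vascular endothelial growth factor (VEGF), AMG386, a peptibody that neutralises angiopoietins, and an antibody against the T cell checkpoint receptor PD-1. The comparison is between 6 of the 15 libraries of the series, 3 per group, chosen by their labels alone. The spread that its tests use was estimated over all 15. The other groups, 3 libraries each, were the tumour region after dual therapy (aflibercept and AMG386 without the antibody), the hemisphere opposite the tumour in mice given IgG, and the brain of sham-operated mice. All were adult wild-type mice of the strain labelled BL6/57, and each library was a pool of 3 mice. In the groups with a tumour, tissue was taken 21 days after tumour cells were transplanted. Each replicate is a pool of its own, per the labels. Not given in the sources used here are doses, the treatment schedule and the tumour line.

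VEGF binds the receptor Kdr on endothelial cells and drives them to divide, sprout and leak. Angiopoietin-1, made largely by pericytes, keeps vessels stable through the receptor Tek, and angiopoietin-2, made by activated endothelium, can oppose it. In healthy brain, endothelial cells form the blood-brain barrier, a state maintained by Wnt/beta-catenin signalling and by contact with pericytes and astrocyte end-feet. PD-1 is carried by T cells and is engaged by the ligand PD-L1 (Cd274), which interferon induces on many cells, endothelium included.

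The deposited values are normalised scores: each library's reads were scaled by its own factor, so they are not read counts. An estimated 9219842 to 18323670 reads stood behind each of the 6 libraries. Within groups, libraries correlated at Pearson r of 0.9419 to 0.9650 in untreated tumour and 0.9747 to 0.9772 after triple therapy, across genes on the log2 scale. On the first principal component over all 15 libraries, which held 47.4% of the variance, the untreated libraries lay at 103 to 117, the triple therapy libraries at -2.47 to 14.4, the dual therapy libraries at 24.1 to 40.1 and the sham libraries at -89.0 to -75.8. Mitochondrial ribosomal RNA took 22.4%, 33.2% and 21.5% of the score in untreated tumour and 12.2%, 9.55% and 11.96% after triple therapy. These did not overlap (exact permutation p = 0.1, two-sided, the smallest that 3 against 3 allows). Untreated replicate 2, with the highest share, stood apart from the other libraries of its group. Endothelial markers were high in all 6 libraries: Pecam1 had scores of 6625, 9444 and 7088 in untreated tumour and 9642, 8840 and 10701 after triple therapy, and Cdh5 6541, 7387 and 6295 and 6321, 6359 and 8029. In bulk RNA of this kind, fewer cells of a type and less RNA per cell cannot be told apart.

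The deposited values cover 27174 genes, of which 19668 passed the filter on low scores (at least 10 in at least 3 of the 15 libraries) and were tested. Of these, 3390 rose (17.2%) and 2950 fell (15%) after triple therapy against untreated tumour, at an adjusted p below 0.05 in limma. All 3 triple therapy libraries lay above all 3 untreated libraries for 4234 genes (21.5%) and below them for 4424 (22.5%). The falls reached further than the rises: 578 genes fell by more than 2 on the log2 scale and 259 rose by as much, and beyond 3 the counts were 138 and 14. The median over all genes tested was -0.02. When each library was instead scaled to equal endothelial identity genes, 2255 genes rose and 3113 fell, so rises made up 42.0% of the calls in place of 53.5%, and the median of all genes moved by -0.12. With mitochondrial genes left out and libraries scaled to equal totals, 2915 rose and 3443 fell, and rises made up 45.85% of the calls. Quantile normalisation kept the balance, with 3451 rises and 2952 falls.

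**Figure D1:**
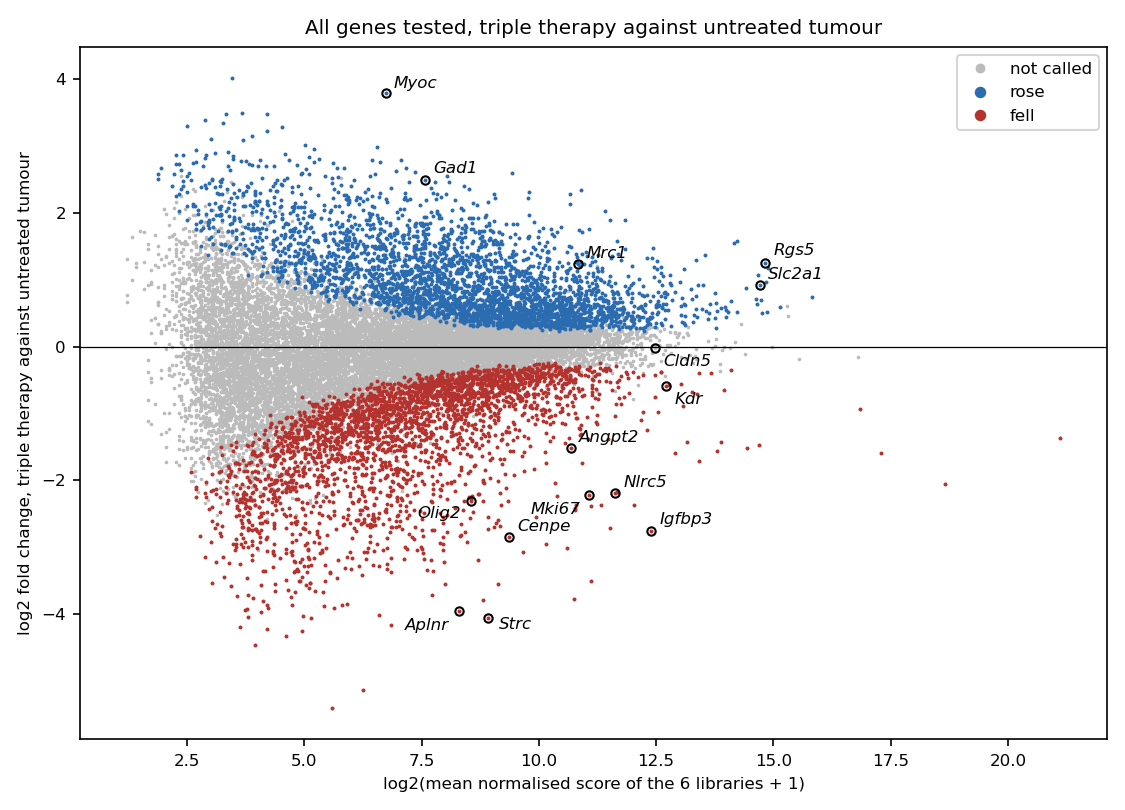
Change of every gene tested (vertical axis, log2 fold change of triple therapy against untreated tumour) against its mean level in the 6 libraries (horizontal axis, log2 of the normalised score + 1), with called rises in blue, called falls in red and 15 genes named. Aplnr and Strc lie near -4, Rgs5 and Slc2a1 are highly expressed genes near +1, and Cldn5 lies at 0.

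Among genes with a mean score of at least 50 in the higher group and no overlap, the largest falls held Strc, the gene of the inner ear protein stereocilin, at scores of 1285, 569 and 892 in untreated tumour and 43, 81 and 38 after triple therapy (log2 fold change -4.06 ± 0.49, adjusted p = 1.06e-05), against 6.67 ± 2.52 (mean ± SD, n = 3) in sham. Col20a1, a collagen gene, fell from 1118, 535 and 856 to 52, 83 and 43 (-3.79 ± 0.31, adjusted p = 5.62e-07). Mybl2, a transcription factor of the cell cycle, had 229, 166 and 144 in untreated tumour and 7, 20 and 7 after triple therapy (-4.01 ± 0.60, adjusted p = 7.35e-05). Prph, the intermediate filament peripherin, Mmp10, a matrix metalloproteinase, and Tacr1, the substance P receptor, had log2 fold changes of -3.71, -3.86 and -3.67. In all 6 of these genes every sham library lay below every untreated library.

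Among the largest rises, Myoc, which encodes myocilin, had scores of 24, 0 and 75 in untreated tumour, the lowest in replicate 2, and 183, 232 and 118 after triple therapy (3.80 ± 0.93, adjusted p = 0.00459). Diras2, a small GTPase, went from 28, 28 and 42 to 270, 247 and 174 (2.78 ± 0.25, adjusted p = 9.16e-07), with 599 ± 153 in sham. Slc22a6, an organic anion transporter, went from 27, 26 and 71 to 238, 213 and 277 (2.68 ± 0.32, adjusted p = 8.31e-06), with 223 ± 10 in sham. Adra1a, an alpha-1 adrenergic receptor, rose from 11, 6 and 9 to 51, 71 and 68 (2.75 ± 0.28, adjusted p = 2.23e-06). After triple therapy Slc22a6 lay about the sham range, Myoc overlapped it, and Diras2 stayed below it.

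**Figure D2:**
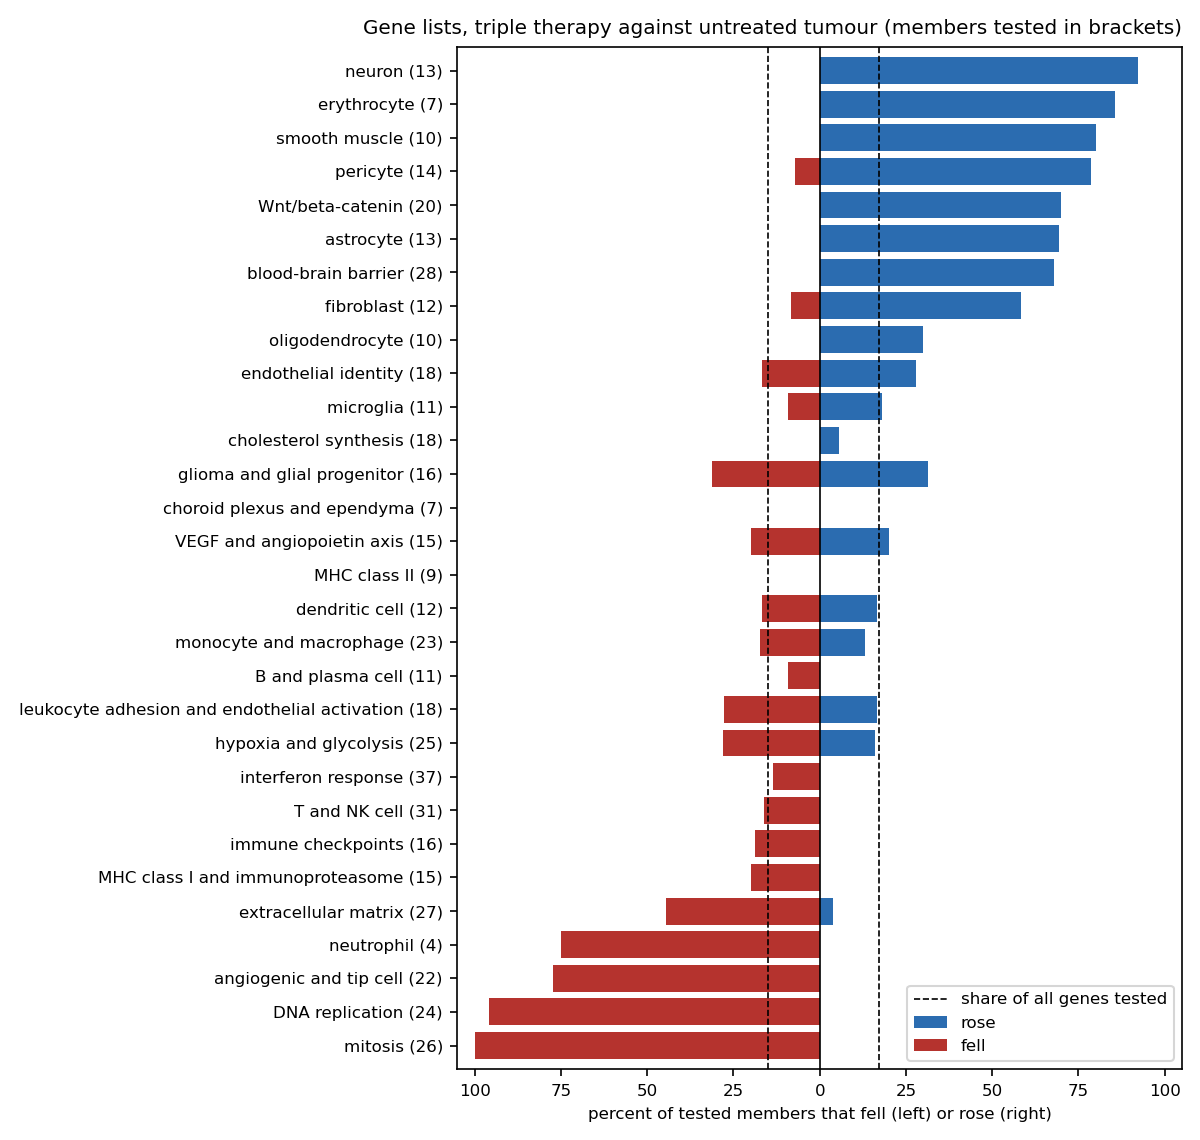
Percent of the tested members of 30 gene lists that rose (blue, to the right) or fell (red, to the left) after triple therapy against untreated tumour, with the number tested in brackets; the dashed lines are the shares over all genes tested, 17.2% for rises and 15% for falls. Mitosis, DNA replication and angiogenic genes lie at the falling end, and neuronal, erythrocyte, mural and barrier genes at the rising end; the interferon, T and NK cell, checkpoint and MHC lists hold no rises.

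Of 15 genes of the VEGF and angiopoietin axis, which holds the drug targets, 3 rose and 3 fell, shares near the 17.2% and 15% over all genes, with a median of 0.07. Among the ligands, Vegfa (GRCm38 chromosome 17, 46016993 to 46032369), the main VEGF, fell from 607, 432 and 386 to 249, 274 and 211 (-0.94 ± 0.21, adjusted p = 0.00241), with 271 ± 62.6 (mean ± SD, n = 3, as for other sham and dual therapy levels below) in sham and 279 ± 47.4 after dual therapy. Angpt2 (chromosome 8, 18690263 to 18741562), the angiopoietin of activated endothelium, had scores of 4009, 1971 and 1444 in untreated tumour and 743, 956 and 681 after triple therapy (-1.52 ± 0.34, adjusted p = 0.00242). Every treated library lay below every untreated library for both genes, and Angpt2 stayed above its sham level of 386 ± 59.3. Angpt1 (chromosome 15, 42424727 to 42676977), the stabilising ligand, rose from 140, 291 and 312 to 519, 451 and 496 (1.06 ± 0.25, adjusted p = 0.00362), with 497 ± 18.6 in sham. Pgf, placental growth factor, which aflibercept also binds, had 467, 415 and 327 and 414, 524 and 430 and was not called (0.19 ± 0.16, adjusted p = 0.405).

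Among the receptors, Tek (chromosome 4, 94739289 to 94874976), the angiopoietin receptor, rose from 3835, 6950 and 6180 to 9348, 8323 and 11569 (0.82 ± 0.17, adjusted p = 0.00117). Ptprb, a phosphatase that acts on Tek, also rose (0.59 ± 0.17, adjusted p = 0.013), but did not pass without untreated replicate 1 (adjusted p = 0.0661) or triple therapy replicate 3 (0.0643), or under quantile normalisation (0.16, adjusted p = 0.347). Kdr (chromosome 5, 75932827 to 75978458), the main signalling receptor for VEGF, fell from 8352, 7819 and 7943 to 4817, 4828 and 6614 (-0.58 ± 0.14, adjusted p = 0.00447), to below the sham level of 7509 ± 726. After dual therapy Kdr stood at 6640, 8450 and 6766, and the difference between triple and dual therapy did not pass the test (-0.43 ± 0.14, adjusted p = 0.158). Flt1, a decoy-like VEGF receptor, had 27435, 45050 and 31020 and 44534, 41668 and 53949 and was not called (0.46 ± 0.18, adjusted p = 0.0638). Flt1 was called without untreated replicate 2, at 0.67 (adjusted p = 0.00533), and 5 genes of the list then rose in place of 3. Flt4, Nrp1 and Nrp2, further VEGF receptors and co-receptors, had log2 fold changes of 0.00, 0.07 and -0.16, none called.

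**Figure D3:**
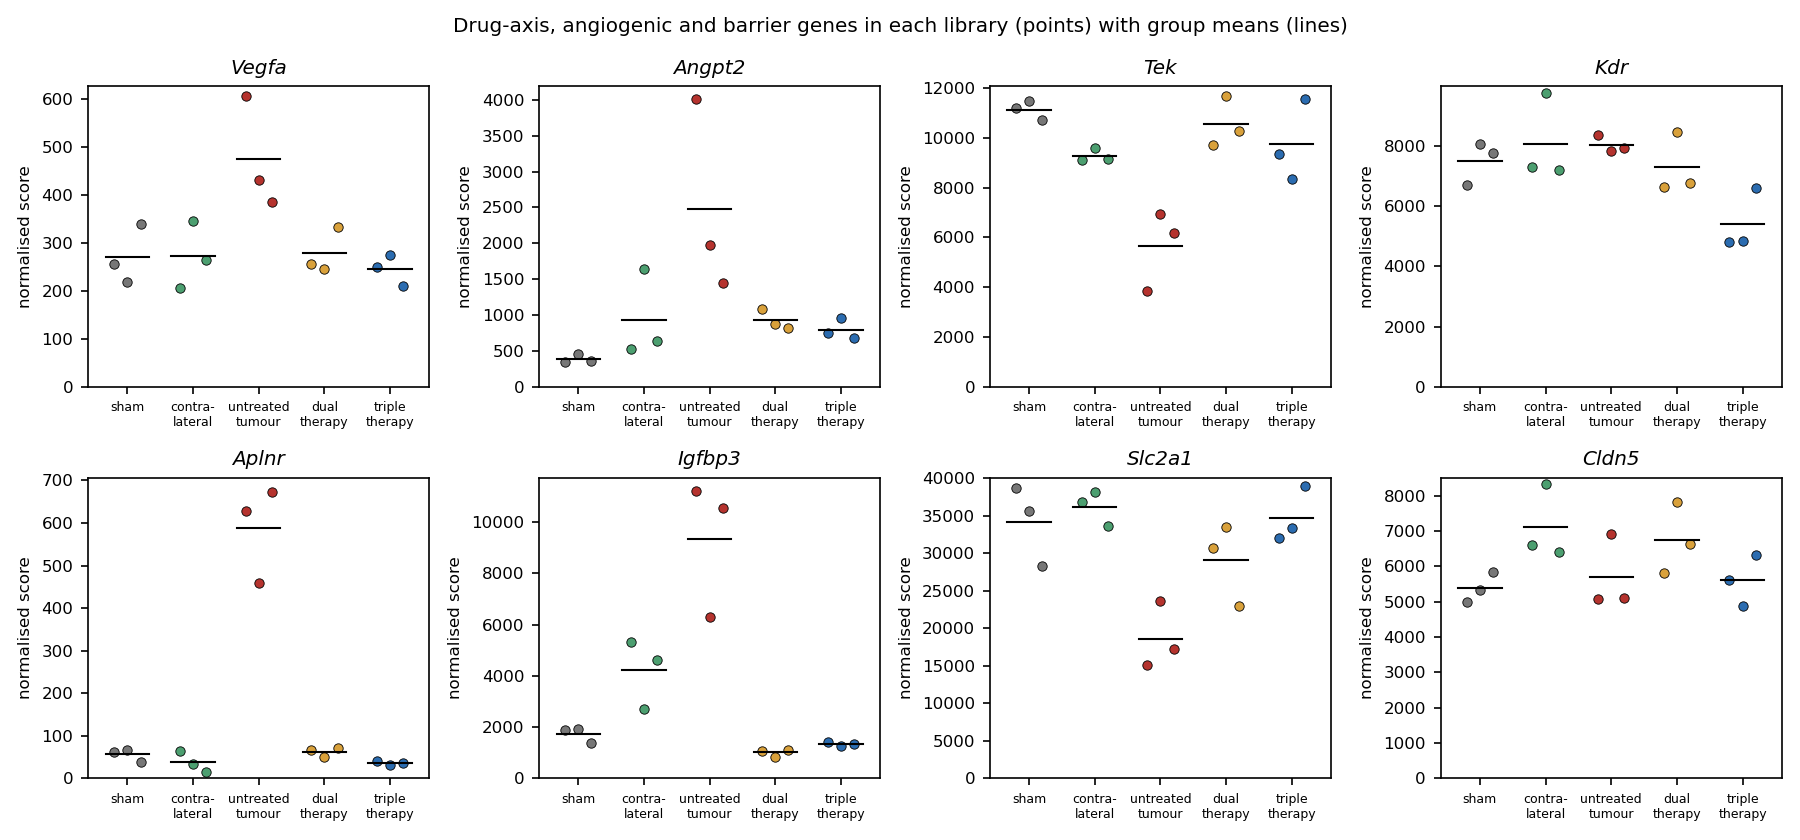
Normalised score (vertical axis, from 0) of 8 vessel genes in each of the 15 libraries (points), grouped by treatment, with the group mean as a line. Vegfa, Angpt2, Aplnr, Igfbp3 and Kdr are lower in all 3 triple therapy libraries than in any untreated library, Tek and Slc2a1 are higher, and Cldn5 overlaps.

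Genes of sprouting endothelium fell as a group: 17 of 22 angiogenic and tip cell genes fell and 0 rose, with a median of -0.95, against 15% falling over all genes. In 18 of the 22 all treated libraries lay below all untreated ones (22.5% over all genes). Aplnr (chromosome 2, 85136225 to 85139923), the apelin receptor of growing vessels, had scores of 628, 460 and 674 in untreated tumour and 41, 32 and 37 after triple therapy (-3.95 ± 0.37, adjusted p = 1.18e-06), with 56 ± 14.9 in sham. Its ligand Apln went from 4192, 2061 and 2026 to 276, 454 and 268 (-3.00 ± 0.47, adjusted p = 0.000115). Igfbp3 (chromosome 11, 7206086 to 7213923), an insulin-like growth factor binding protein, went from 11223, 6285 and 10560 to 1409, 1273 and 1357 (-2.75 ± 0.22, adjusted p = 5.62e-07), with 1744 ± 302 in sham. After treatment the mean of Aplnr and of Igfbp3 lay below that of sham, while Apln stayed above its sham level of 216 ± 13.5.

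Further members that fell were Esm1, a tip cell proteoglycan (-2.30 ± 0.48, adjusted p = 0.00147), Cxcr4, a chemokine receptor (-1.17 ± 0.26, adjusted p = 0.00211), Dll4, the Notch ligand of tip cells (-0.87 ± 0.23, adjusted p = 0.00811), and Cd276, a checkpoint molecule of tumour vessels (-1.57 ± 0.30, adjusted p = 0.000758). Not called were Plvap, the diaphragm protein of leaky vessels, with 323, 270 and 504 and 358, 320 and 438 (0.06 ± 0.29, adjusted p = 0.892), and Unc5b, Ramp3, Insr and Pgf. Insr fell under quantile normalisation (-0.45, adjusted p = 0.00443) and endothelial identity scaling (-0.30, adjusted p = 0.0436). Summed over the list, scores were 81283, 62967 and 67705 in untreated tumour, 35484, 38143 and 37993 after triple therapy, 37594, 33423 and 35063 after dual therapy and 32647, 35202 and 29860 in sham. The triple and dual therapy sums interleaved, and no member of the list passed the test between the 2 therapies.

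Of 27 extracellular matrix genes 12 fell and 1 rose, against 15% and 17.2% of all genes, with a median of -0.48. The basement membrane collagens Col4a1 and Col4a2 fell: Col4a1 went from 21370, 18187 and 18752 to 11444, 12876 and 12641 (-0.66 ± 0.16, adjusted p = 0.00363). Tnc, tenascin C, a matrix protein of tumour vessels, went from 2395, 563 and 1613 to 303, 523 and 301 (-1.83 ± 0.38, adjusted p = 0.0013) and Mmp14, a membrane-bound collagenase, from 2387, 1960 and 2303 to 876, 841 and 728 (-1.44 ± 0.17, adjusted p = 1.04e-05). Lama5, the laminin chain of mature vessels, was the member that rose (0.66 ± 0.17, adjusted p = 0.00672). Fn1, fibronectin, was not called, with 65800, 39482 and 47896 and 44562, 43485 and 43506. The 1 rise in the list became 3 without untreated replicate 2 and 2 without untreated replicate 1 or without triple therapy replicate 2.

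Barrier genes moved the other way. Of 28 blood-brain barrier genes 19 rose and 0 fell, with a median of 0.61, against 17.2% rising over all genes; 1 fell under quantile normalisation or endothelial identity scaling. Slc2a1 (chromosome 4, 119108711 to 119137983), the glucose transporter of brain endothelium, rose from 15054, 23590 and 17171 to 32060, 33302 and 38899 (0.92 ± 0.18, adjusted p = 0.000649). Mfsd2a (chromosome 4, 122946850 to 122961188), the lipid transporter that restrains transcytosis, rose from 453, 627 and 342 to 743, 854 and 1251 (1.01 ± 0.22, adjusted p = 0.00212). Slc22a8, an organic anion transporter, rose from 620, 717 and 713 to 1282, 1221 and 1803 (1.05 ± 0.15, adjusted p = 3.86e-05), and Abcb1a, the efflux pump P-glycoprotein, from 8441, 11915 and 9709 to 16720, 15281 and 20361 (0.80 ± 0.14, adjusted p = 0.000399). None of the treated libraries overlapped the untreated ones for these 4 transporters.

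The tight junction genes were less uniform. Ocln, occludin, rose (0.63 ± 0.16, adjusted p = 0.00479) although 1 treated library lay within the untreated range, and Tjp1, the scaffold ZO-1, rose (0.43 ± 0.12, adjusted p = 0.01), a call lost without triple therapy replicate 3 (0.0582) or untreated replicate 1 (0.05). Cldn5 (chromosome 16, 18776847 to 18778260), the main claudin of brain endothelium, had 5085, 6915 and 5112 in untreated tumour and 5623, 4886 and 6310 after triple therapy, with 5386 ± 428 in sham, and was not called (-0.02 ± 0.15, adjusted p = 0.942). The summed score of the list was 118975, 169621 and 130545 in untreated tumour, 213120, 204025 and 264579 after triple therapy and 238631, 234376 and 230943 in sham. The sums after triple therapy spanned the sham range and did not overlap those of untreated tumour.

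Of 20 Wnt/beta-catenin genes 14 rose and 0 fell, against 17.2% rising over all genes, with a median of 0.56. Axin2 (chromosome 11, 108920349 to 108950783), a direct target used as a readout of the pathway, went from 474, 544 and 423 to 970, 811 and 1009 (0.95 ± 0.14, adjusted p = 5.61e-05), with 794 ± 40.5 in sham. The transcription factors Lef1 (0.62 ± 0.14, adjusted p = 0.00297) and Tcf7 (0.66 ± 0.14, adjusted p = 0.00148) and the receptor Fzd4 (0.79 ± 0.16, adjusted p = 0.00118) rose, as did Apcdd1, Nkd1 and Notum, feedback inhibitors of the pathway, at 0.51, 0.89 and 1.25. Of the ligands, Wnt7a rose from low scores of 11, 2 and 12 to 37, 30 and 18 (1.86 ± 0.62, adjusted p = 0.0276), and Wnt7b and Ndp were not called. Wnt7a did not pass without untreated replicate 2 or triple therapy replicate 1 or 2 (adjusted p of 0.0716 to 0.133). Of 18 endothelial identity genes 5 rose and 3 fell (17.2% and 15% over all genes), with a median of 0.16, and Cdh5, Erg, Emcn, Esam and Robo4 lay between -0.06 and 0.03. Leaving out untreated replicate 1 or triple therapy replicate 3 left 2 rises. Pecam1 was called higher, but did not pass without replicate 1 or 3 of either group (adjusted p of 0.0896 to 0.167). Summed endothelial identity scores were 73839, 100412 and 94193 in untreated tumour and 102145, 96608 and 114361 after triple therapy. Sox17, an arterial transcription factor, rose most, from 429, 806 and 637 to 1440, 1309 and 1562 (1.25 ± 0.17, adjusted p = 2.85e-05), and Clec14a, an angiogenesis-linked lectin, fell from 2794, 2885 and 3046 to 1560, 1463 and 1658 (-0.90 ± 0.11, adjusted p = 1.26e-05).

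Genes of the cells that wrap vessels rose. Of 14 pericyte genes 11 rose and 1 fell, with a median of 0.82, and of 10 smooth muscle genes 8 rose and 0 fell, with a median of 1.11. Over all genes 17.2% rose and 15% fell. Pdgfrb (chromosome 18, 61045150 to 61085061), the receptor that recruits pericytes, rose from 1585, 1604 and 1845 to 2975, 2797 and 3706 (0.91 ± 0.13, adjusted p = 4.55e-05). Rgs5, a pericyte regulator of G protein signalling, rose from 14627, 19529 and 17800 to 39894, 35874 and 47017 (1.24 ± 0.15, adjusted p = 1.03e-05), and Vtn, vitronectin, from 2631, 2364 and 2285 to 4990, 4861 and 7150 (1.20 ± 0.14, adjusted p = 7.14e-06). The pericyte member that fell, Mcam, is also an angiogenic endothelial gene and stands in both lists (-0.75 ± 0.13, adjusted p = 0.000237). Summed pericyte scores were 34583, 37328 and 36785 in untreated tumour, 65569, 60585 and 78182 after triple therapy, 57287, 66609 and 55199 after dual therapy and 70034, 71060 and 69840 in sham.

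In smooth muscle, Acta2, alpha smooth muscle actin, went from 3043, 8117 and 8263 to 14920, 14359 and 13854 (1.29 ± 0.26, adjusted p = 0.00104) and Myh11, smooth muscle myosin, from 3524, 7790 and 9894 to 18892, 15918 and 15543 (1.37 ± 0.27, adjusted p = 0.000898). Untreated replicate 1 was the lowest library for both, and the treated libraries differed little among themselves. Des and Smtn, also among the rises, lost their calls without untreated replicate 1 (adjusted p = 0.261 and 0.123). Both also lost them without any 1 treated replicate (0.0501 to 0.104), and Smtn without untreated replicate 3 (0.0724). Of 12 fibroblast genes 7 rose and 1 fell (17.2% and 15% over all genes). Lum, lumican, went from 166, 133 and 175 to 498, 318 and 492 (1.44 ± 0.18, adjusted p = 1.66e-05), and Pdgfra from 814, 667 and 1034 to 2402, 1683 and 2643 (1.42 ± 0.21, adjusted p = 7.09e-05). Col1a1 and Col3a1 were not called, and Col6a3 fell (-1.38 ± 0.27, adjusted p = 0.000727). Crabp2, 1 of the 7 rises, did not pass without untreated replicate 2 or triple therapy replicate 1 or 3 (adjusted p of 0.0841 to 0.191). No gene of these 3 lists passed the test between triple and dual therapy.

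**Figure D4:**
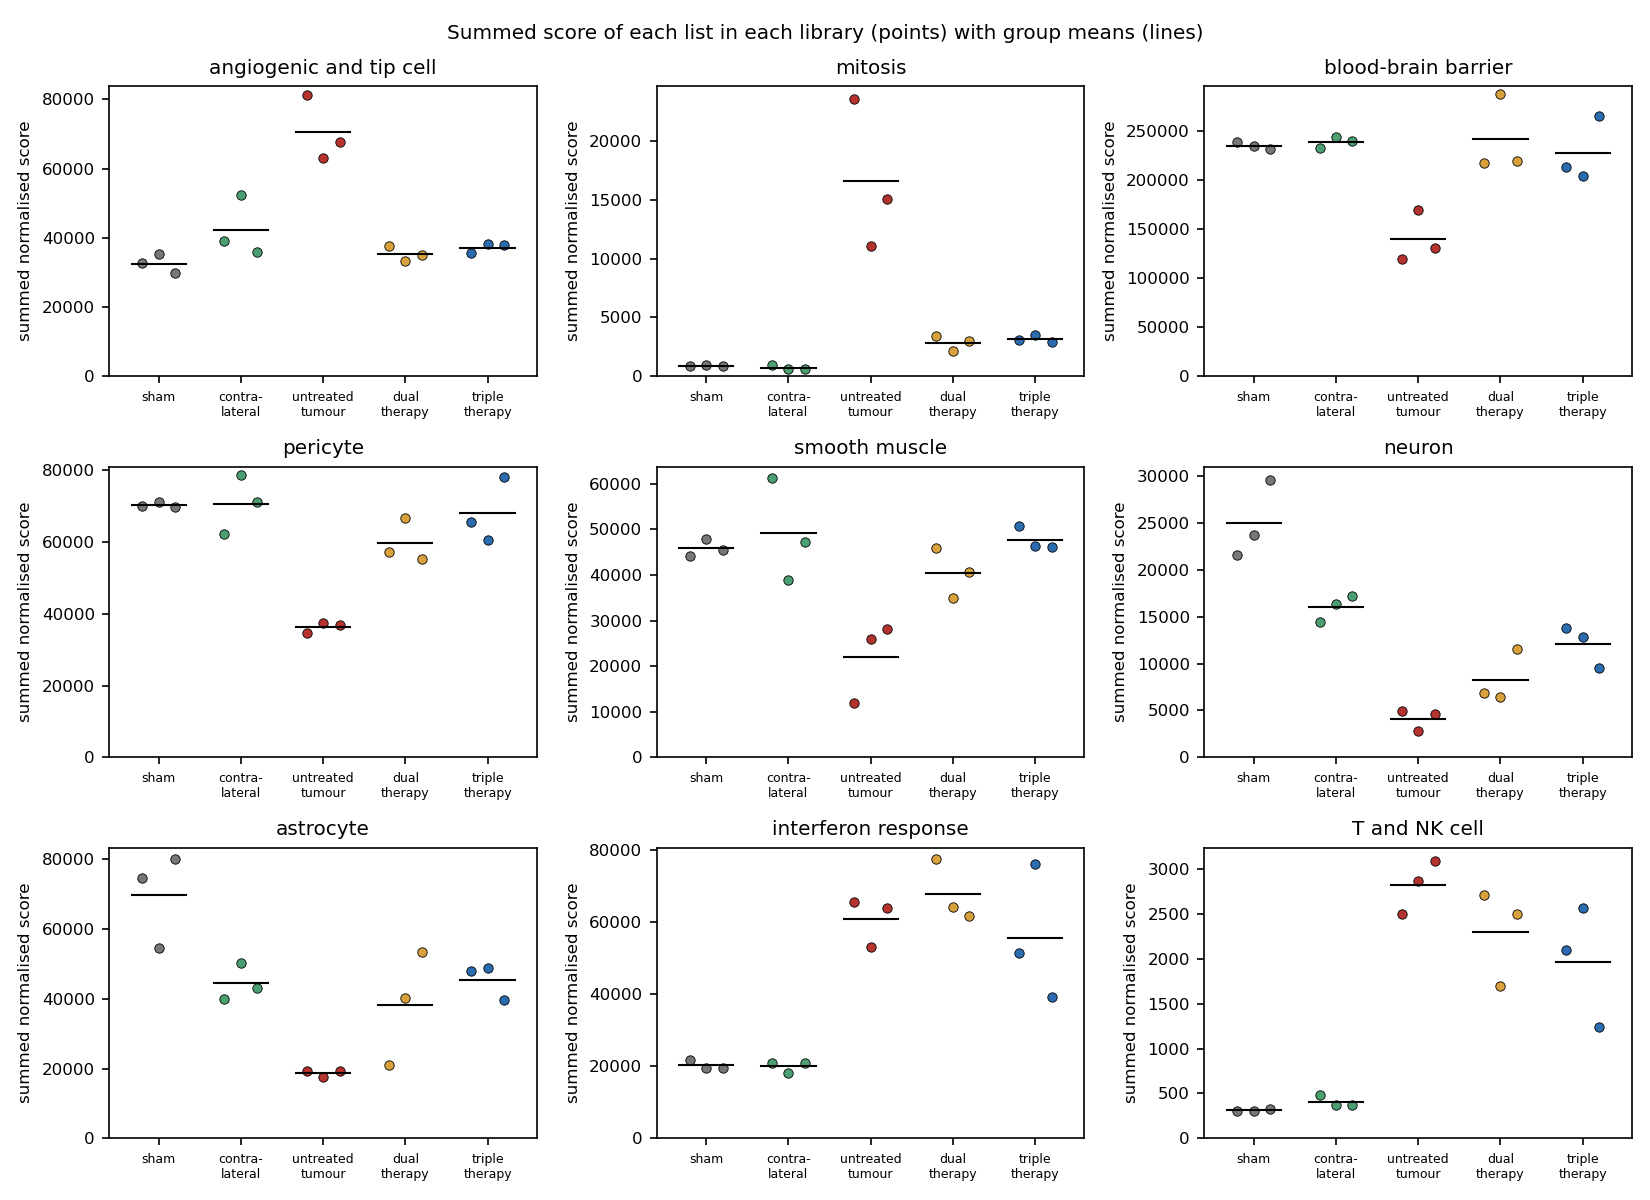
Summed normalised score (vertical axis, from 0) of 9 gene lists in each of the 15 libraries (points), grouped by treatment, with the group mean as a line. Angiogenic and mitosis sums are lower and barrier, pericyte, smooth muscle, neuron and astrocyte sums higher in all 3 triple therapy libraries than in any untreated library, while the interferon sums of triple therapy spread from below to above the untreated range.

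With all libraries kept, proliferation genes fell without exception in mitosis and with 1 exception in replication. All 26 mitosis genes fell, with a median of -2.37, and 23 of 24 tested DNA replication genes fell, with a median of -1.62, against 15% of all genes. With 1 library left out 23 to 26 mitosis genes fell, the fewest without untreated replicate 1. There Bub1 (adjusted p = 0.0745), Plk1 (0.067) and Ccnb2 (0.15) did not pass. Ccnb2 also did not pass without untreated replicate 3 or any 1 treated replicate (0.068 to 0.14). Mki67 (chromosome 7, 135689784 to 135716361), the proliferation marker Ki-67, went from 5465, 1933 and 3323 to 703, 761 and 649 (-2.22 ± 0.33, adjusted p = 7.27e-05), with 534 ± 177 after dual therapy and 94.7 ± 7.02 in sham. Top2a, the topoisomerase of dividing cells, went from 4153, 1999 and 2791 to 544, 634 and 480 (-2.37 ± 0.33, adjusted p = 3.44e-05). Cenpe, the kinetochore motor, went from 1593, 873 and 983 to 148, 200 and 121 (-2.85 ± 0.27, adjusted p = 1.18e-06), and Ect2, the exchange factor that places the cleavage furrow, from 571, 268 and 373 to 69, 73 and 62 (-2.49 ± 0.26, adjusted p = 3.21e-06). Treated and untreated libraries did not overlap for any mitosis gene, and untreated replicate 1 was the highest of its group for each of those 4 genes.

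Among replication genes, Mcm3, a subunit of the replicative helicase, went from 741, 576 and 639 to 223, 221 and 258 (-1.47 ± 0.14, adjusted p = 1.55e-06), and Rrm2, a subunit of ribonucleotide reductase, from 309, 192 and 177 to 31, 41 and 34 (-2.61 ± 0.45, adjusted p = 0.000264). Chaf1b was the tested member not called (-1.60 ± 0.72, adjusted p = 0.1), and Fen1, which had scores of 16, 4, 2 in untreated tumour, was too low to test. Mcm4 did not pass without untreated replicate 1 (adjusted p = 0.0926) or 3 (0.0522) or triple therapy replicate 2 (0.0794). Summed mitosis scores were 23522, 11112 and 15067 in untreated tumour, 3082, 3496 and 2955 after triple therapy and 851, 939 and 857 in sham, so the treated sums stayed above sham. Which dividing cells these transcripts came from was not tested.

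The promoters of the pair of mitosis genes with the smallest adjusted p are shown because the whole list moved together (RefSeq, GRCm38.p6, 250 bases before to 50 after the start site, 5′ to 3′ on the gene's strand). Capitals mark CCAAT boxes (CCAAT or ATTGG) and the cell cycle homology region (TTTGAA or TTCAAA), an element bound by complexes that switch mitotic genes on and off.
Cenpe, chr3:135212313-135212612, plus strand: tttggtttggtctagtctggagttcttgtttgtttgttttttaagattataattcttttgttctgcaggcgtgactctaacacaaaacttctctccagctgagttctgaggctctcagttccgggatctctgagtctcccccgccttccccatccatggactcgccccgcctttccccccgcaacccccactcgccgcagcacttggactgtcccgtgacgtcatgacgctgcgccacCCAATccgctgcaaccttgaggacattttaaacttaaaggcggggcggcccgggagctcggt
Ect2, chr3:27153829-27154128, minus strand: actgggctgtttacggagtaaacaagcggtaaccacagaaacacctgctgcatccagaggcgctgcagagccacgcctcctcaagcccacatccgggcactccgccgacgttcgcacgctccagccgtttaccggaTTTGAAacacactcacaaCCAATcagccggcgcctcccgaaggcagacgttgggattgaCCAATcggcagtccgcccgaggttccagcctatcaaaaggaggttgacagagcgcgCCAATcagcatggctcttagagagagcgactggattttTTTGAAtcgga
The Cenpe window held 1 CCAAT box and 0 copies of TTTGAA on either strand, and the Ect2 window, 1 of 2 overlapping windows listed for the gene, held 3 and 2. Of 24 windows matched to 22 of the 26 mitosis genes, 19 (79.2%) held TTTGAA on either strand and 20 (83.3%) held CCAAT, against 17.9% and 37.4% of all 32851 windows. The DNA replication windows differed: 3 of 25 (12%) held TTTGAA, 14 (56%) held CCAAT, and 7 (28%) held an E2F site, TTTGGCGC or TTTCCCGC on either strand, which 0 of the 24 mitosis windows and 1.56% of all windows held. A match of letters describes the window and does not show that a factor was bound.

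Of 18 leukocyte adhesion and endothelial activation genes 3 rose and 5 fell, where 17.2% and 15% of all genes did, with a median of -0.57. Ackr1, a chemokine-binding receptor of venules, went from 624, 474 and 539 to 224, 325 and 71 (-1.64 ± 0.46, adjusted p = 0.00992), with 28.7 ± 11.7 in sham, and Edn1, the vasoconstrictor endothelin-1, from 784, 957 and 855 to 512, 608 and 567 (-0.62 ± 0.15, adjusted p = 0.00352). Thbd, the anticoagulant thrombomodulin, rose from 1121, 1875 and 1322 to 2789, 2455 and 3007 (0.96 ± 0.18, adjusted p = 0.000613), and Cx3cl1, fractalkine, from 347, 549 and 601 to 882, 963 and 920 (0.92 ± 0.18, adjusted p = 0.000716). Vcam1 and Icam1, the main adhesion molecules for leukocytes, were not called: Vcam1 had 3204, 4005 and 4950 and 5333, 5231 and 3756, and Icam1 771, 792 and 850 and 733, 789 and 504. With 1 library left out, 1 to 5 genes fell: 3 without untreated replicate 1 or 3, 2 without triple therapy replicate 1 and 1 without triple therapy replicate 3, where Ackr1 did not pass (adjusted p = 0.074). The rises became 5 without untreated replicate 2.

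Most interferon genes were not called, and the treated libraries differed widely among themselves. Of 37 interferon response genes 0 rose and 5 fell, a share near the 15% of all genes, with a median of -0.20. Their summed score was 65608, 53254 and 64066 in untreated tumour, 51380, 76104 and 39291 after triple therapy, 77686, 64274 and 61808 after dual therapy and 21835, 19541 and 19492 in sham. Triple therapy replicate 2 was above every untreated library, replicate 3 was below every one, and both were above every sham library. Gbp2, an interferon-induced GTPase, had 5933, 3671 and 5309 in untreated tumour and 5677, 11094 and 3289 after triple therapy. Cxcl9, the interferon-gamma chemokine that attracts T cells, had 1516, 554 and 1121 and 932, 1507 and 297, with 2.67 ± 3.06 in sham, and was not called (-0.39 ± 0.73, adjusted p = 0.72). Gbp2 rose without triple therapy replicate 3 (0.70, adjusted p = 0.0313). The members that fell with the smallest adjusted p were Stat2, a mediator of type I interferon signalling (-0.75 ± 0.17, adjusted p = 0.00249), and Mx2, an antiviral GTPase (-0.84 ± 0.20, adjusted p = 0.00407). The number that fell depended on the libraries: 14 without triple therapy replicate 2, 2 without replicate 1 or 3 of triple therapy, and 2 and 3 without untreated replicates 1 and 3, and 2 genes rose without triple therapy replicate 3.

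Of 15 MHC class I and immunoproteasome genes 0 rose and 3 fell, a share of falls near the 15% of all genes, and of 9 MHC class II genes none was called in either direction by limma (at an unadjusted p below 0.05, 8235 of all 19668 genes passed), though 2 fell without untreated replicate 2 and 1 without triple therapy replicate 2. Nlrc5 (chromosome 8, 94434391 to 94527272), the transactivator of MHC class I genes, fell by far the most of these, from 5955, 3900 and 5434 to 1129, 1805 and 651 (-2.19 ± 0.28, adjusted p = 1.76e-05), with 2036 ± 125 after dual therapy and 244 ± 81.1 in sham. The class I genes it acts on were not called in most cases: H2-K1 had 5889, 4314 and 6128 and 4207, 4851 and 3363 (-0.39 ± 0.19, adjusted p = 0.115; called without untreated replicate 2, at -0.55, adjusted p = 0.0331), and B2m, the shared light chain, 19343, 15653 and 19060 and 19952, 20679 and 16133 (0.07 ± 0.16, adjusted p = 0.779). Tap1 and H2-Q4, the others that fell, overlapped between groups, and lost their call without untreated replicate 1 or 3 or triple therapy replicate 1 or 3 (adjusted p of 0.0564 to 0.167), which left 1 gene called. Class I genes are similar in sequence, so how reads were split between them is uncertain. Cd74, the class II invariant chain, had 2805, 1313 and 2934 and 2408, 2919 and 1407.

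**Figure D5:**
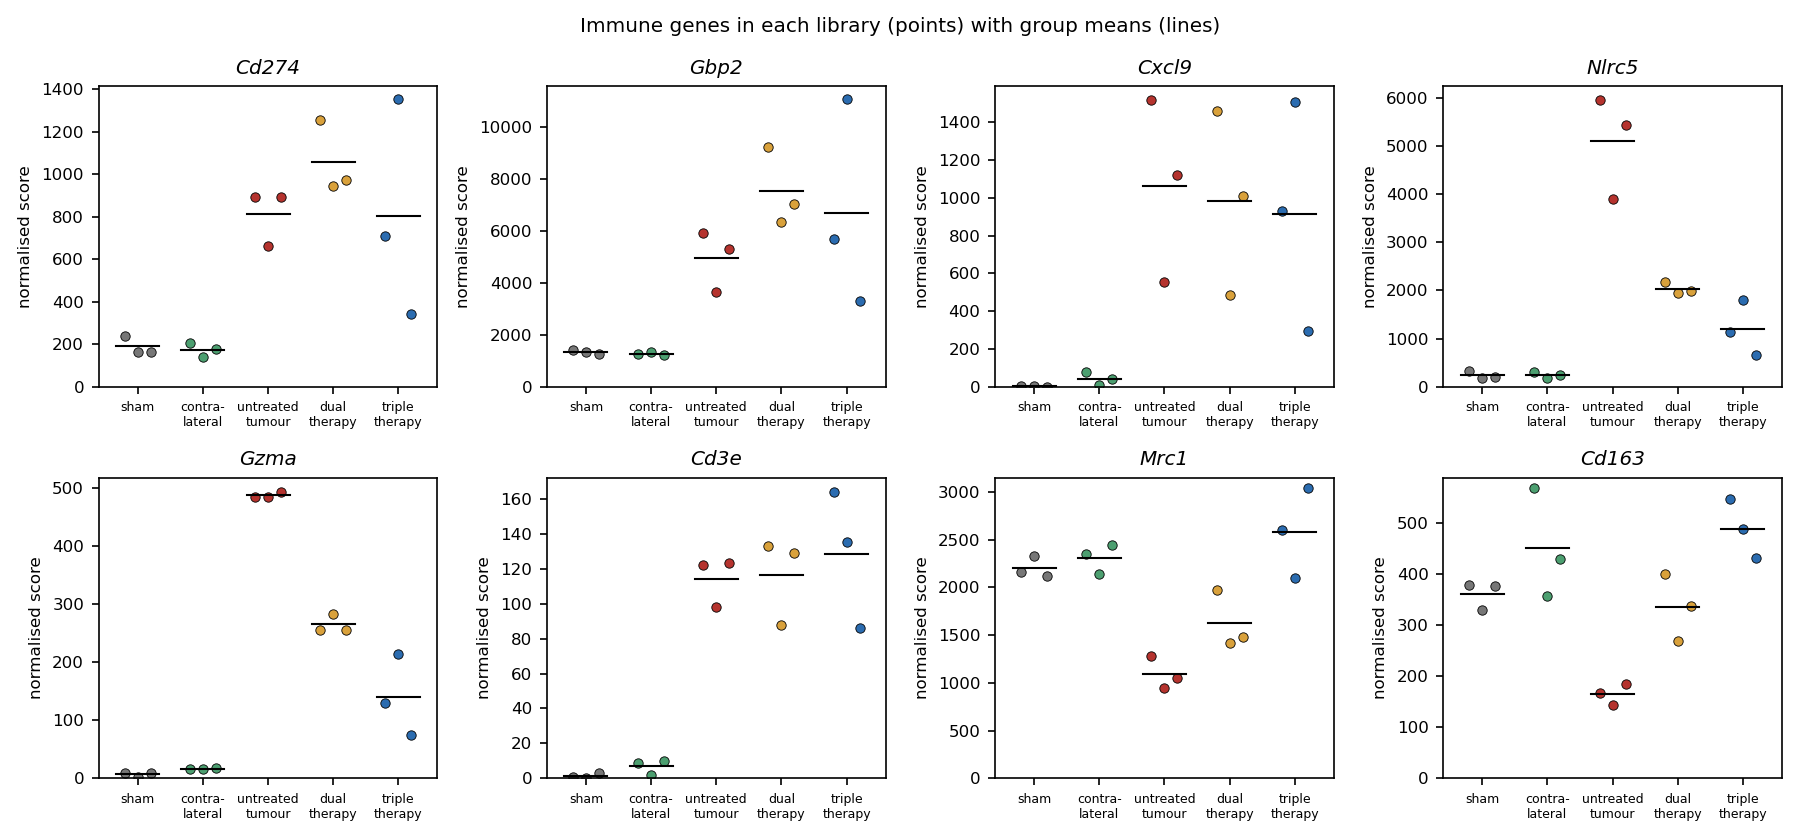
Normalised score (vertical axis, from 0) of 8 immune genes in each of the 15 libraries (points), grouped by treatment, with the group mean as a line. Cd274, Gbp2 and Cxcl9 scatter widely among the 3 triple therapy libraries, Nlrc5 and Gzma are lower in all of them than in any untreated library, and Mrc1 and Cd163 are higher.

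The target of the antibody and its ligand were not called. Pdcd1, PD-1 itself, was near the lower limit of the scale, with 14, 22 and 52 in untreated tumour and 38, 46 and 12 after triple therapy (0.13 ± 0.90, adjusted p = 0.93). Cd274, PD-L1, had 892, 662 and 892 and 709, 1355 and 344 (-0.22 ± 0.32, adjusted p = 0.629), with 190 ± 43.3 in sham. Of 16 checkpoint genes 3 fell, a share near the 15% of all genes, and 0 rose: Tnfrsf9, the costimulatory receptor 4-1BB, went from 246, 187 and 148 to 46, 82 and 39 (-1.82 ± 0.50, adjusted p = 0.00917), beside Cd276 and Havcr2, the receptor TIM-3 (-0.83 ± 0.28, adjusted p = 0.0291). Havcr2 lost its call when untreated replicate 1 or 3 or triple therapy replicate 1 or 3 was left out (adjusted p of 0.0649 to 0.151).

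Among 31 tested genes of T and NK cells 5 fell, a share near the 15% of all genes, and 0 rose, with a median of -0.18, and 3 more were too low to test. Cd3e, part of the T cell receptor complex, had 122, 98 and 123 and 164, 135 and 86 (0.12 ± 0.50, adjusted p = 0.877), Cd8a 39, 42 and 19 and 50, 30 and 25 (0.09 ± 0.53, adjusted p = 0.92), and Foxp3, the factor of regulatory T cells, 20, 57 and 35 and 31, 24 and 24 (-0.38 ± 0.48, adjusted p = 0.585). Gzma, granzyme A, went from 484, 484 and 493 to 130, 214 and 75 (-1.92 ± 0.39, adjusted p = 0.00104), with 265 ± 15.6 after dual therapy. Ncr1, the NK cell receptor NKp46, went from 45, 59 and 82 to 9, 12 and 16 (-2.23 ± 0.48, adjusted p = 0.00169). Gzmb, granzyme B, and Eomes, a transcription factor of NK and memory T cells, also fell, from 281, 324 and 241 to 78, 135 and 31 (-2.004 ± 0.57, adjusted p = 0.0119) and from 41, 41 and 55 to 17, 14 and 9 (-1.73 ± 0.52, adjusted p = 0.0155), as did Klrk1, the receptor NKG2D (-1.22 ± 0.41, adjusted p = 0.0288). Triple therapy replicate 3 was the lowest treated library for Gzma, Gzmb, Eomes and Klrk1. Without it 2 genes of the list fell, and Gzmb (adjusted p = 0.0842), Eomes (0.0748) and Klrk1 (0.185) did not pass. Without untreated replicate 3, 3 genes fell, and Eomes (0.0569) and Klrk1 (0.0984) did not pass. Klrk1 was also not called without untreated replicate 2 (0.0516) or triple therapy replicate 1 (0.0552). Of 11 B and plasma cell genes 1 fell, a share below the 15% of all genes. It was Xbp1, which many secretory cells use (-0.57 ± 0.14, adjusted p = 0.00358). Igkc, an antibody light chain, was uneven, with 41, 32 and 164 and 367, 54 and 176, and was not called.

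The list of monocyte and macrophage genes had 3 rises and 4 falls among 23, shares near the 17.2% and 15% of all genes, with a median of -0.69. All treated libraries lay below all untreated ones in 11 of the 23 and above them in 4 (22.5% and 21.5% over all genes). Mrc1 (chromosome 2, 14229392 to 14332057) and Cd163, scavenger receptors of the macrophages that live along brain vessels, rose: Mrc1 from 1277, 948 and 1052 to 2595, 2102 and 3045 (1.23 ± 0.14, adjusted p = 7.43e-06), and Cd163 from 166, 143 and 185 to 546, 487 and 430 (1.56 ± 0.18, adjusted p = 5.26e-06). Lyve1, carried by a subset of the same cells, rose from 123, 94 and 64 to 126, 139 and 201 (0.74 ± 0.24, adjusted p = 0.0233). Msr1, a scavenger receptor of infiltrating macrophages, fell from 453, 367 and 381 to 194, 217 and 137 (-1.15 ± 0.22, adjusted p = 0.000659), Chil3, a chitinase-like protein of monocytes, from 155, 308 and 85 to 35, 41 and 15 (-2.47 ± 0.64, adjusted p = 0.00639), and Cd14 and Itgam fell too. Ccr2, the receptor of inflammatory monocytes, was lower in every treated library, with 351, 369 and 658 and 315, 349 and 153, and was not called (-0.78 ± 0.35, adjusted p = 0.0991). Without triple therapy replicate 3, 2 members fell, and Itgam (adjusted p = 0.119), Cd14 (0.086) and Lyve1 (0.138) did not pass. Nor did Lyve1 (0.13) and Itgam (0.0793) without untreated replicate 3, or Cd14 without untreated replicate 1 (0.0745) or triple therapy replicate 1 (0.0722).

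Of 11 microglia genes 2 rose and 1 fell, where 17.2% and 15% of all genes did, and P2ry12, the receptor that marks resting microglia, was not called, with 136, 153 and 122 and 129, 114 and 119. Of 12 dendritic cell genes 2 rose and 2 fell, also near those shares: Zbtb46, which endothelium also expresses, rose (0.83 ± 0.15, adjusted p = 0.000542), and Fscn1, fascin, fell (-1.22 ± 0.32, adjusted p = 0.00639). Without untreated replicate 1 or triple therapy replicate 1, 1 dendritic cell gene rose. Of 4 neutrophil genes high enough to test 3 fell, against 15% of all genes. S100a9, a calcium-binding protein abundant in neutrophils, went from 57, 86 and 31 to 13, 11 and 2 (-2.77 ± 0.70, adjusted p = 0.00542). These neutrophil scores are low, and Cxcr2 lost its call without untreated replicate 1 or 2 or triple therapy replicate 2 (adjusted p of 0.0664 to 0.113). In the microglia list, Tmem119 lost its call without untreated replicate 1 or any 1 treated replicate, and Sall1 without replicate 3 of either group.

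Markers of brain tissue around the vessels moved with the groups. Of 13 neuron genes 12 rose and 0 fell, with a median of 1.56, and of 13 astrocyte genes 9 rose and 0 fell, with a median of 1.274. The shares over all genes were 17.2% rising and 15% falling. Gad1, the enzyme that makes GABA, went from 80, 42 and 50 to 338, 391 and 238 (2.49 ± 0.26, adjusted p = 3.21e-06), with 709.7 ± 134 in sham. Slc17a7, the vesicular glutamate transporter, went from 166, 95 and 133 to 626, 539 and 448 (2.05 ± 0.22, adjusted p = 4.27e-06), with 932 ± 174 in sham. Aqp4, the water channel of astrocyte end-feet, went from 870, 293 and 766 to 2291, 3440 and 2098 (2.13 ± 0.33, adjusted p = 0.000119), while Gfap (0.59 ± 0.34, adjusted p = 0.204) and Gja1 (-0.12 ± 0.14, adjusted p = 0.556) were not called. Summed neuron scores were 4957, 2775 and 4657 in untreated tumour, 13806, 12813 and 9520 after triple therapy and 21550, 23732 and 29643 in sham, and summed astrocyte scores 19396, 17439 and 19374, 47962, 48664 and 39682 and 74523, 54431 and 80055. The part of this tissue RNA in the rises of barrier, mural and other genes was not tested.

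Of 10 oligodendrocyte genes 3 rose and 0 fell (17.2% and 15% over all genes), and without untreated replicate 2 or triple therapy replicate 2, 1 rose. Mbp, the myelin basic protein, was uneven, with 1468, 2857 and 3906 and 3084, 7386 and 2365. Of 7 choroid plexus genes 0 were called by limma in either direction (1 rose without untreated replicate 2), where 17.2% of all genes rose and 15% fell. Ttr, transthyretin, which dominates that tissue, ranged from 14289 to 76214 over the 6 libraries. Of 7 erythrocyte genes 6 rose and 0 fell, against 17.2% and 15% over all genes. Hbb-bs, a beta globin, went from 351, 958 and 618 to 1399, 1805 and 2586 (1.66 ± 0.37, adjusted p = 0.00247), with 1479 ± 89.4 in sham. Hba-a1 and Hba-a2 are near-identical copies, so how reads were split between them is uncertain, and Hba-a1 did not pass without untreated replicate 1 (adjusted p = 0.0809) or triple therapy replicate 3 (0.0765).

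Of 16 glioma and glial progenitor genes 5 rose and 5 fell (17.2% and 15% over all genes). Olig2 (chromosome 16, 91225550 to 91228677) and Sox10, transcription factors of the oligodendrocyte lineage and of many gliomas, fell from 931, 368 and 592 to 89, 159 and 115 (-2.31 ± 0.28, adjusted p = 1.16e-05) and from 385, 215 and 218 to 74, 96 and 72 (-1.70 ± 0.35, adjusted p = 0.00119). Dll3, a Notch ligand of neural progenitors, went from 80, 23 and 36 to 3, 4 and 5 (-3.08 ± 0.78, adjusted p = 0.00568). Egfr, the epidermal growth factor receptor, rose from 149, 138 and 198 to 419, 419 and 367 (1.32 ± 0.15, adjusted p = 4.96e-06), with 412 ± 47.4 in sham, and Prom1, Id1, Pdgfra and Cspg4 were the other rises, of which Pdgfra also stands in the fibroblast list and Cspg4 in the pericyte list. Without untreated replicate 1 or triple therapy replicate 1, 3 fell.

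Of 25 hypoxia and glycolysis genes 4 rose and 7 fell (17.2% and 15% over all genes), with a median of -0.11. Car9, a carbonic anhydrase induced by hypoxia, went from 64, 65 and 33 to 28, 12 and 14 (-1.56 ± 0.44, adjusted p = 0.0113), Adm, adrenomedullin, from 307, 227 and 92 to 45, 48 and 39 (-2.06 ± 0.46, adjusted p = 0.00214), and Ldha, lactate dehydrogenase, from 1950, 1803 and 1561 to 1062, 1261 and 1133 (-0.62 ± 0.17, adjusted p = 0.00931). Ndrg1 rose, from 2319, 4114 and 3096 to 7188, 7572 and 8532 (1.32 ± 0.16, adjusted p = 8.59e-06), beside Slc2a1, Hk1 and Higd1b. Without untreated replicate 1, 3 fell, and Car9 (adjusted p = 0.0523) and Higd1b (0.0529) did not pass. Car9 was also lost without triple therapy replicate 2 (0.0536), and Hk1 without replicate 3 of untreated tumour (0.0581) or triple therapy (0.0546). Of 18 cholesterol synthesis genes 1, Hmgcs1, rose (0.42 ± 0.14, adjusted p = 0.0275), a share below the 17.2% of all genes. Hmgcs1 did not pass without untreated replicate 1 or 3 or triple therapy replicate 1 or 2 (adjusted p of 0.0613 to 0.117), and 2 rose without untreated replicate 2.

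Dual therapy, compared with the same untreated libraries, gave 2376 rises and 2001 falls. Tested directly between the therapies, 103 genes were higher and 68 lower after triple therapy, 0.869% of the genes tested (2850 at an unadjusted p below 0.05). Of the genes in the 30 lists only Mrc1, Slc17a7 and Tubb3 passed this test. Mrc1 stood at 2595, 2102 and 3045 after triple and 1974, 1422 and 1483 after dual therapy (0.67 ± 0.14, adjusted p = 0.0365). Slc17a7 stood at 626, 539 and 448 and 243, 206 and 370 (1.01 ± 0.22, adjusted p = 0.0397), and Tubb3, a neuronal tubulin, at 232, 329 and 196 and 89, 83 and 170 (1.18 ± 0.27, adjusted p = 0.0457). Of the genes with the largest changes, Ccr3, an eosinophil chemokine receptor, was lower after triple therapy, at 7, 6 and 4 against 35, 71 and 75 (-3.15 ± 0.67, adjusted p = 0.0359), and Diras2 was higher, at 270, 247 and 174 against 102, 58 and 95 (1.44 ± 0.25, adjusted p = 0.0153). Nlrc5 and Gzma, lower on average after triple than after dual therapy, did not pass (-0.89 ± 0.28, adjusted p = 0.143; -1.04 ± 0.39, adjusted p = 0.211). Mean mitochondrial ribosomal RNA was 11.2% ± 1.47 after triple and 16.2% ± 1.10 after dual therapy (SD, n = 3).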

How the data were processed

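Total RNA of 15 microvessel libraries, 100 ng each, went into a stranded total RNA kit (Clontech), per the labels' protocols. Per the submitters' processing notes, the tools were STAR (2.4.0a), featureCounts (1.4.5-p1) and DESeq2, on GRCm38. Whether counting used strand was not stated in these sources, so genes overlapping on opposite strands are uncertain. The authors deposited 1 normalised score per gene and library, whole numbers that fit reads times a library factor, rounded. These are not counts, so reads were only estimated. Genes scoring at least 10 in at least 3 of 15 libraries were tested (19668; 7506 left out) as log2(score + 1), which understates changes of low genes. limma 3.58.1 (R 4.3.3, mean-variance trend, 10 residual and 8.26 prior degrees of freedom) fitted 1 mean per group; p-values are two-sided, adjusted by Benjamini-Hochberg over all genes, called below 0.05. Values after ± are SE for fold changes and SD for levels. Coordinates are those of the deposited table.

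Named genes were up to 12 rises and 12 falls with the largest change (mean of at least 50, no overlap), up to 4 per list by adjusted p, and fixed drug-axis and marker genes; others named were added from the lists after their values were seen. Members and lists were chosen with earlier results of these data known. The pipeline was tested on simulated data. The p-values measure the spread between pools.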

Additional observations from a re-analysis of the deposited data

How the results depend on the processing

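The alternatives were 19: another pseudocount, filter, scaling or weighting, voom, a replicate block and leaving out libraries. The 3390 rises became 2255 with endothelial identity scaling and 2201 with a replicate block on only the 6 libraries, and the 2950 falls stayed within 1.5 times under every alternative. A fit on only the 6 libraries, with no spread taken from the other groups, gave 2732 rises and 2742 falls. Calls lost in it included Pecam1 (adjusted p = 0.118), Des (0.0964), Smtn (0.0704), Lyve1 (0.0667), Tap1 (0.0664), Ptprb (0.0561) and H2-Q4 (0.0527). Calls gained included Chaf1b (0.00524) and Gfap (0.0495). With 1 library left out there were 2655 to 3479 rises and 2059 to 2991 falls. The counts were 2787 and 2066 without untreated replicate 1, and 3479 and 2991 without untreated replicate 2. Leaving out both libraries that stood apart (untreated and dual therapy replicates 2), chosen after seeing the data, gave 3622 and 3197. The replicate block over all 15 libraries gave 3382 and 2927. Replicate numbers did not pair the samples: same-numbered libraries correlated at -0.0049, -0.1080 and -0.1303 in their deviations from group means. The block on 6 libraries left 9 Wnt rises in place of 14. Malat1, not called at -0.15, was called higher under quantile normalisation, at 0.5017 (adjusted p = 0.0213); the cause was not tested. No called direction reversed among the 135 genes named by rule (largest changes, smallest adjusted p per list, drug-axis and marker genes). Of 123 of them called, 107 kept their call in every alternative that tested them (the stricter filter left out 9 of the 123). Of the same 123, 15 lost it without some library. Genes added from the lists after their values were seen are not in these counts. Several of those lost their call without some library, as given with their lists. Rounding of the scores limits genes below about 10.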

Other observations

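Families picked by symbol or biotype after the values were seen are described here, with no test of the family; over all genes 17.2% rose and 15% fell. Several classes of non-coding RNA held more falls than rises. Neat1, the scaffold of nuclear paraspeckles, had scores of 6749, 7447 and 6874 in untreated tumour and 1250, 1707 and 1179 after triple therapy (log2 fold change -2.37 ± 0.14, adjusted p = 8.64e-09 in limma). Kcnq1ot1, an imprinted antisense RNA, fell from 8190, 4567 and 6375 to 3065, 3287 and 2409 (-1.10 ± 0.16, adjusted p = 7.09e-05). Malat1, another nuclear RNA, was not called, with 105799, 126355 and 129352 against 113815, 112798 and 97977 (-0.15 ± 0.16, adjusted p = 0.508), and its direction turned under quantile normalisation. Of 14861 protein-coding genes 3247 rose and 2005 fell, while of 1631 gene models still awaiting experimental evidence 22 rose and 408 fell, of 133 small nucleolar RNAs 2 rose and 69 fell, and of 191 sense-intronic RNAs 4 rose and 52 fell. Gm26917, a single non-coding gene, took 4.91% ± 0.739 of the score in untreated tumour and 1.42% ± 0.527 after triple therapy (SD, n = 3; exact permutation p = 0.1, the smallest that 3 against 3 allows).

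Of 11 SR splicing factor genes 8 fell and 0 rose: Srsf5 went from 1553, 1681 and 1457 to 800, 914 and 728 (-0.94 ± 0.12, adjusted p = 1.17e-05). Luc7l3, a spliceosome component, went from 4189, 4414 and 3737 to 1742, 1598 and 1413 (-1.38 ± 0.11, adjusted p = 5.62e-07). Of 20 heterogeneous nuclear ribonucleoprotein genes 12 fell and 0 rose. Of 81 ribosomal protein genes, many with near-identical pseudogenes, 56 fell and 0 rose, with a median of -0.54, and all 7 tested mitochondrial protein genes fell, with a median of -1.52.

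On the rising side, all 14 tested GABA receptor genes, 17 of 28 glutamate receptor genes, 12 of 16 synaptotagmin genes and 46 of 82 genes with potassium channel symbols rose, and 0, 0, 1 and 5 fell. The last 82 and 5 include the antisense RNA Kcnq1ot1, which shares the symbol but is not a channel gene. Solute carriers rose in 87 of 299 and fell in 21. Of 44 collagen genes 9 rose and 11 fell, where 17.2% and 15% of all genes did. Col11a2 fell from 1658, 1509 and 1163 to 143, 250 and 134 (-3.07 ± 0.24, adjusted p = 4.53e-07). Col14a1 rose from 197, 254 and 366 to 838, 854 and 904 (1.71 ± 0.17, adjusted p = 2.21e-06). Histone genes fell in 26 of 49 and rose in 1.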
